A study of Mus musculus with 4 samples.

Results

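The genes described here are 31 genes of sterol and fatty acid synthesis in mouse: the enzymes from HMG-CoA synthase to cholesterol, the proteins that control the pathway, and the enzymes that make, desaturate and lengthen fatty acids. They were taken from a list of gene names, and all 31 were found among the 49585 genes of the deposited count files. RNA of C2C12 cells, a myoblast line of C3H mouse origin, was sequenced in 4 libraries while the cells were proliferating. In 2 libraries the cells carried the empty retroviral vector pLXSN, and in the other 2 they overexpressed C/EBPβ from a retrovirus. C/EBPβ, the product of Cebpb, is a transcription factor that pairs through a leucine zipper and contacts DNA through the basic region beside it. Both groups were selected with G418 at 1200 μg/ml for 7 days, pooled as stable cells, and grown for 48 h. The labels give 10% fetal bovine serum as the medium of the line. They name no separate transductions or cultures for the replicates, so p-values measure only how far these samples differ from each other, and part of that may be technical. In bulk RNA, fewer cells of a type and less RNA per cell cannot be told apart.

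Cholesterol and fatty acids are both built from acetyl-CoA, and their enzymes are controlled largely at the level of transcription. The SREBP factors, encoded by Srebf1 and Srebf2, are made as membrane proteins that Scap carries from the endoplasmic reticulum to the Golgi for cleavage when sterols are scarce, while Insig1 and Insig2 hold Scap back when sterols are plentiful. SREBP-2 acts mostly on cholesterol genes and SREBP-1c mostly on fatty acid genes. Proliferating myoblasts need both products for new membranes.

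The libraries of the empty vector held 40912955 and 37566321 counts, those of C/EBPβ 38656497 and 92027838, and each of the 31 genes had at least 452 counts in every library. Cebpb stood at 85.0 and 76.8 CPM in the empty vector libraries and at 483 and 473 CPM with C/EBPβ (CPM are a gene's counts relative to the TMM-scaled library size). Of 7 myoblast markers 5 were called lower with C/EBPβ (Myod1, Des, Cdh15, Chrna1 and Myog) and 1 higher (Myf5), and Vcam1 was not called. The 7 summed to 2822 to 2990 CPM in the empty vector and 1728 to 2015 with C/EBPβ. Marker sums here are CPM of the library total, without TMM. Of 7 adipocyte markers Lep had 0 counts in every library, Adipoq, Cidec and Cfd had at most 3 in any, and Plin1 had 0 and 0 against 19 and 17. Their summed level, most of it Pparg, was 22 to 25.8 and 27.5 to 33.2 CPM. Pparg was not called, and Fabp4 was called higher, at 0.243 and 0.106 against 9.38 and 5.31 CPM (TMM-scaled). Fabp4 had only 10 and 4 counts with the empty vector, and it passed the low-count filter through the C/EBPβ libraries. Of 6 leukocyte markers Tyrobp and Itgam had 0 counts in every library, and the sums were 5.27 to 5.82 and 7.37 to 7.70, with Csf1r called higher. None of 8 proliferation markers was called by edgeR, limma-voom or DESeq2, and 1 (Pcna, named after its values were seen) had an unadjusted p under 0.05 in edgeR, on the lower side. Their sums were 2087 to 2278 and 1989 to 2120. Both C/EBPβ libraries were below both controls for Ccnb1, Cdk1, Mcm2, Mcm5, Pcna and Ccna2, above them for Mki67, and overlapped for Top2a. Over all tested genes 32.9% stood wholly below and 33.3% wholly above. The part of these markers in the results below was not tested.

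Sterol and fatty acid synthesis genes differed little between C/EBPβ and empty vector myoblasts. Insig1, which retains the SREBP escort in the endoplasmic reticulum, fell, as did Msmo1, the sterol C4-methyl oxidase that acts after Cyp51 in the pathway. Elovl5, the elongase of polyunsaturated fatty acids, rose. The other 28 genes did not pass an adjusted p of 0.05 (edgeR's quasi-likelihood test with Benjamini-Hochberg adjustment over all 15078 genes tested, the test behind every adjusted p here unless another is named). Thus 1 of 31 was called higher and 2 lower, or 9.68% in all, where 24.9% of all tested genes were called, 14.1% higher and 10.8% lower. Without C/EBPβ replicate 1 none of the 31 was called by edgeR, with 1 at an unadjusted p under 0.05. Without C/EBPβ replicate 2 there were 0 higher and 3 lower, and 1 gene was higher at an unadjusted p under 0.05.

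The size of the differences was also small in absolute terms. The 31 log2 fold changes (C/EBPβ over empty vector) ran from -0.40 to 0.34, which is 0.756-fold to 1.27-fold. Their median was -0.03 and that of all tested genes 0.00. The median size without regard to sign was 0.11 on the log2 scale for the 31 genes, 0.22 for all tested genes, and 0.16 for the 8965 tested genes whose mean lay in the same range of 13.8 to 2083 CPM. For 29 genes the 95% interval of the fold change lay within 1.5-fold in both directions. The interval crossed that bound on the lower side for Msmo1 and Insig1, so a fall of that size is within it. Counts of the groups by library gave 7 genes with both C/EBPβ libraries above both empty vector libraries, 9 with both below, and 15 with overlap. Over all tested genes 33.3% stood wholly above and 32.9% wholly below.

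**Figure D1:**
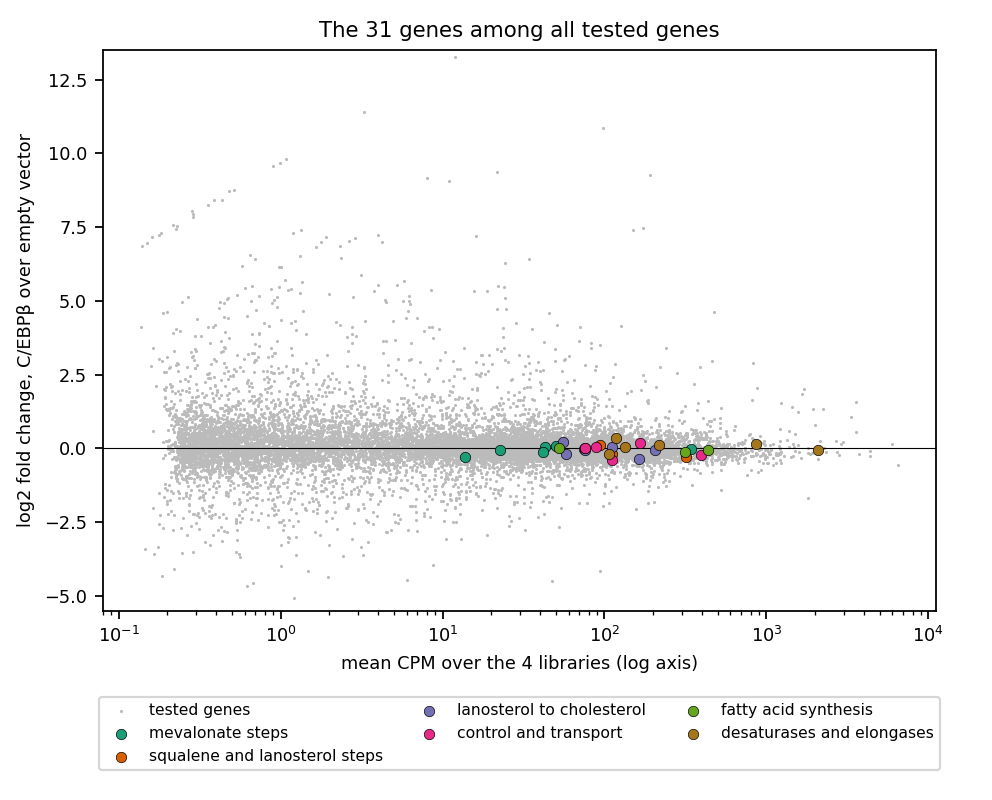
Log2 fold change of each tested gene, C/EBPβ over empty vector, against its mean CPM on a log axis. Grey points are all 15078 tested genes and coloured points the 31 genes by role, which lie between -0.40 and 0.34 on the log2 scale.

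Insig1 (ENSMUSG00000045294, protein-coding) occupies bases 28071363 to 28078662 of chromosome 5 (GRCm38, plus strand). Its level was 125 and 129 CPM in the empty vector libraries and 87.7 and 104 CPM with C/EBPβ. Both C/EBPβ libraries were thus below both controls, with replicate 1 the lower of the pair. The log2 fold change was -0.40 (SE 0.10, 95% interval -0.63 to -0.18, adjusted p = 0.0188). With empty vector replicate 2 left out Insig1 no longer passed (-0.38, adjusted p = 0.0604), nor with C/EBPβ replicate 1 left out (-0.29, adjusted p = 0.215).

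Msmo1 (ENSMUSG00000031604, protein-coding) occupies bases 64718139 to 64733792 of chromosome 8 (minus strand). It stood at 191 and 177 CPM with the empty vector and at 131 and 154 CPM with C/EBPβ, again with no overlap and with C/EBPβ replicate 1 lowest. The log2 fold change was -0.36 (SE 0.10, interval -0.59 to -0.13, adjusted p = 0.0312). With empty vector replicate 1 left out Msmo1 no longer passed (-0.31, adjusted p = 0.103), nor with C/EBPβ replicate 1 left out (-0.25, adjusted p = 0.302).

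Elovl5 (ENSMUSG00000032349, protein-coding) occupies bases 77917364 to 77984519 of chromosome 9 (plus strand). Its 4 values were 108 and 101 CPM with the empty vector and 131 and 133 CPM with C/EBPβ, so the C/EBPβ libraries were above the controls and close to each other. The log2 fold change was 0.34 (SE 0.08, interval 0.16 to 0.53, adjusted p = 0.0163). Leaving out C/EBPβ replicate 1 or 2 gave 0.35 and 0.33, with adjusted p = 0.0784 and 0.0896.

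The bases before a RefSeq start are shown for these 3 genes because they are the genes that were called. Those of Hmgcs1 are shown because they hold the single match to the sterol element type among the entries found for the 31 genes. Each run is the 250 bases upstream of a RefSeq start on GRCm38.p6, 5′ to 3′ on the gene's strand. They are chr5:28071162-28071411 (plus) for Insig1, chr8:64733579-64733828 (minus) for Msmo1, chr9:77917115-77917364 (plus) for Elovl5 and chr13:119690101-119690350 (plus) for Hmgcs1. Capitals mark matches on either strand to 4 short motifs: TCACNCCAC, of the type that SREBP binds, CCAAT, the box bound by NF-Y, CACGTG, the E-box, and TTGCNNAA, of the C/EBP type.
Insig1: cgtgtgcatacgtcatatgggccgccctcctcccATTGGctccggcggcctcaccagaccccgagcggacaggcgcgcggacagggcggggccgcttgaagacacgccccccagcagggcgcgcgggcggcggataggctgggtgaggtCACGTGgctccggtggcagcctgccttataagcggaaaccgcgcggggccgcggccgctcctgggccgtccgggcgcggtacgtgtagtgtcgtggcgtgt
Msmo1: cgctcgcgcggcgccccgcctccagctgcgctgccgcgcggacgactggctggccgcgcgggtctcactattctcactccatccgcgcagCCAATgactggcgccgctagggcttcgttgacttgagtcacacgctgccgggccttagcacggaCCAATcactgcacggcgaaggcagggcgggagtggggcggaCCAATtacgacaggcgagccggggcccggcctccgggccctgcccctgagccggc
Elovl5: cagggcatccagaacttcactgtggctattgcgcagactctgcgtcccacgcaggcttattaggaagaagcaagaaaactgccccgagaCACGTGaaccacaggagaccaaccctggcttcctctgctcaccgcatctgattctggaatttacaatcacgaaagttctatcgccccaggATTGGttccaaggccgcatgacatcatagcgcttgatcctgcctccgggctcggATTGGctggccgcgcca
Hmgcs1: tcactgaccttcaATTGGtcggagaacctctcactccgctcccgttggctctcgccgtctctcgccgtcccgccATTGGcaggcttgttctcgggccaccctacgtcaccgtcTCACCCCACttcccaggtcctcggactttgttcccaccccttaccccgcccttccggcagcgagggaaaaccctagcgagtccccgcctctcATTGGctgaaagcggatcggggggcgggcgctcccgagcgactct

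Insig1 held 1 CCAAT box on the opposite strand, 216 to 212 bases before the start, and an E-box 101 to 96 bases before it. Msmo1 held 3 CCAAT boxes, the nearest 55 to 51 bases before its RefSeq start. A RefSeq start can differ from the gene span given above. Most of the Msmo1 run, with all 3 boxes, lies inside its span, which ends at base 64733792 (minus strand). The last bases of the Insig1 run also lie inside its span, which begins at 28071363, but neither of its matches does. Elovl5 held 2 CCAAT boxes and 1 E-box. In Hmgcs1 the letters TCACCCCAC stood 137 to 129 bases before the start, beside 3 CCAAT boxes. RefSeq entries were found for 24 of the 31 genes, with 32 starts, and not for Fdps, Fdft1, Sqle, Stard4, Scd1, Scd2 and Fads1. Among the 32 starts 62.5% had a CCAAT box in the 250 bases, against 33.8% of all 32851 starts in the table. For the E-box the shares were 18.8% and 6.02%, for the sterol element type 3.12% and 1.05%, and for the C/EBP type 6.25% (Dhcr7 and Nsdhl) and 9.56%. The motifs can overlap each other (in Nsdhl the C/EBP type overlaps a CCAAT box), and a match of letters is not a bound site.

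**Figure D2:**
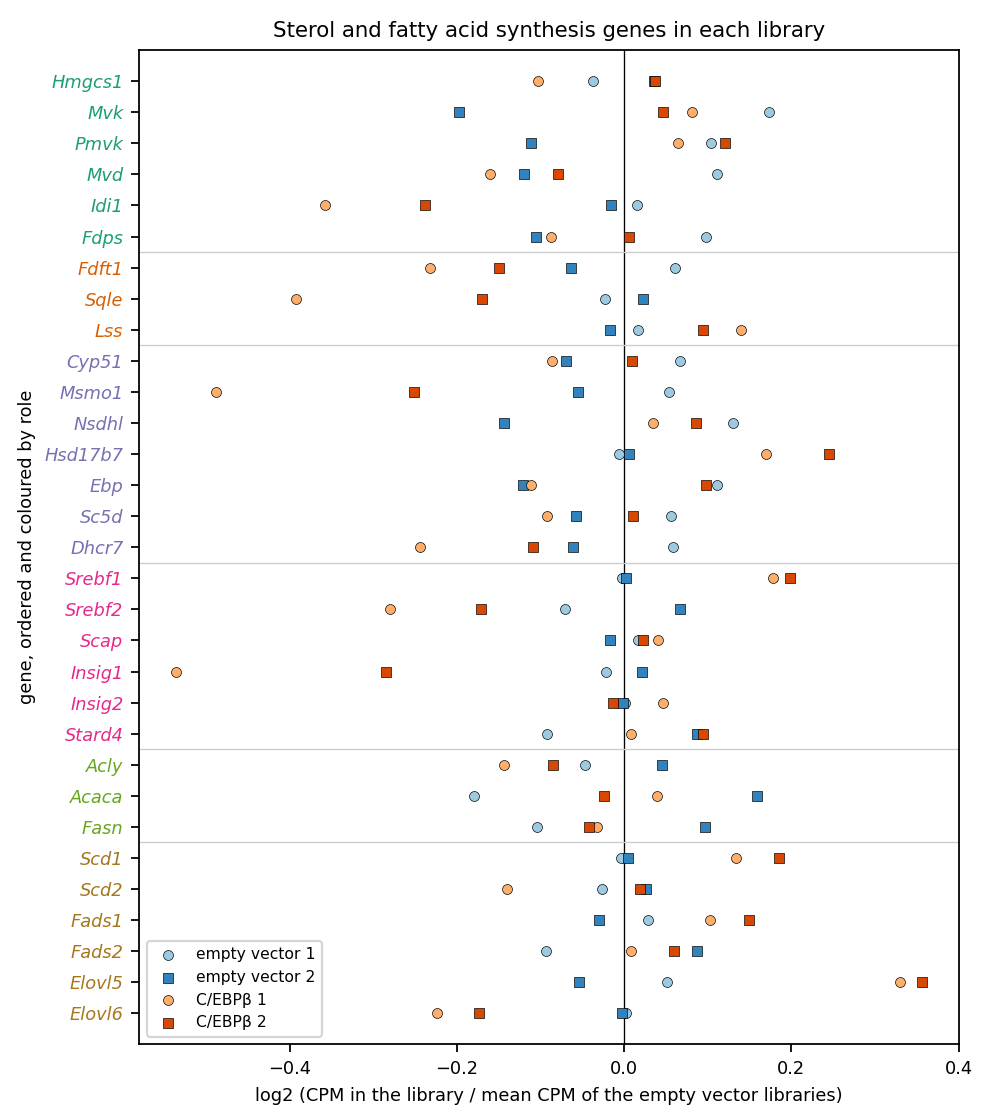
Log2 ratio of each gene's CPM in each library to the mean CPM of the 2 empty vector libraries, with genes ordered and coloured by role. Insig1 and Msmo1 in C/EBPβ replicate 1 lie furthest from 0, and with C/EBPβ 6 of the 31 genes have replicate 1 to the right of replicate 2.

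The mevalonate steps turn acetyl-CoA units into isoprenoids. None of their 6 genes was called by edgeR, with 1 at an unadjusted p under 0.05 (Idi1), and none was called by DESeq2 or limma-voom. Hmgcs1, HMG-CoA synthase, stood at 336 and 353 CPM with the empty vector and at 321 and 353 CPM with C/EBPβ, and the groups overlapped (log2 fold change -0.03, interval -0.24 to 0.18, adjusted p = 0.844). Mvk, mevalonate kinase, had 47.6 and 36.8 against 44.7 and 43.6 CPM, so that the empty vector libraries differed from each other more than the groups did. Pmvk and Mvd, the next kinase and the decarboxylase, had log2 fold changes of 0.09 and -0.12 with overlapping groups. Idi1, isopentenyl diphosphate isomerase, went from 15.3 and 15 to 11.8 and 12.9 CPM, with both C/EBPβ libraries lower (log2 fold change -0.29, interval -0.55 to -0.04, adjusted p = 0.0943). Fdps, farnesyl diphosphate synthase, overlapped between groups at 24.7 and 21.5 against 21.8 and 23.2 CPM. Its level is uncertain: 86.4% of the 50-base windows of its longest coding transcript also stand in other annotated genes, and reads that map to several places were not counted. That share was 30.5% for Idi1 and 13.6% for Hmgcs1. Windows were matched on either strand and can come from a gene that overlaps at the same place, so the share does not count such reads.

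Fdft1, Sqle and Lss encode the enzymes that make squalene, oxidise it and close it to lanosterol. Sqle, squalene epoxidase, a rate-limiting enzyme of the later pathway, had 344 and 355 CPM with the empty vector and 266 and 311 CPM with C/EBPβ. Its C/EBPβ libraries were below the controls, with a log2 fold change of -0.28 (SE 0.10, interval -0.50 to -0.05) and an adjusted p = 0.0798. It passed with DESeq2 (-0.28, adjusted p = 0.0442), with the replicate number as a block (-0.28, adjusted p = 0.0377) and without C/EBPβ replicate 2 (-0.39, adjusted p = 0.0431). Fdft1, squalene synthase, went from 124 and 114 to 102 and 108 CPM (-0.19, interval -0.38 to 0.00, adjusted p = 0.144), and 30.7% of its 50-base windows stand in other genes. Lss, lanosterol synthase, had 91.3 and 89.2 against 99.4 and 96.3 CPM (0.12, interval -0.06 to 0.29). The 3 steps thus included values in both directions, and edgeR called none of them, with 1 at an unadjusted p under 0.05 (Sqle).

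From lanosterol to cholesterol, 1 of 7 genes fell (Msmo1) and none rose by edgeR, DESeq2 or limma-voom, with 1 higher at an unadjusted p under 0.05 (Hsd17b7). Cyp51, the lanosterol demethylase, overlapped at 219 and 199 against 197 and 210 CPM. Nsdhl, which acts with Msmo1 on the C4 position, had 120 and 99.3 against 112 and 116 CPM (log2 fold change 0.06, interval -0.17 to 0.30). Hsd17b7, a reductase of the same demethylation, had 51.4 and 51.8 CPM with the empty vector and 58.0 and 61.1 CPM with C/EBPβ, a value of 0.21 (interval 0.02 to 0.39, adjusted p = 0.0991). The genes of C4 demethylation thus gave -0.36 (Msmo1), 0.06 (Nsdhl) and 0.21 (Hsd17b7) on the log2 scale. Ebp and Sc5d, an isomerase and a desaturase of the sterol ring, had 0.00 and -0.04 with overlapping groups. Dhcr7, which makes cholesterol in the last step of one branch, went from 64.2 and 59.1 to 52.1 and 57.2 CPM (-0.17, interval -0.38 to 0.03, adjusted p = 0.202).

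**Figure D3:**
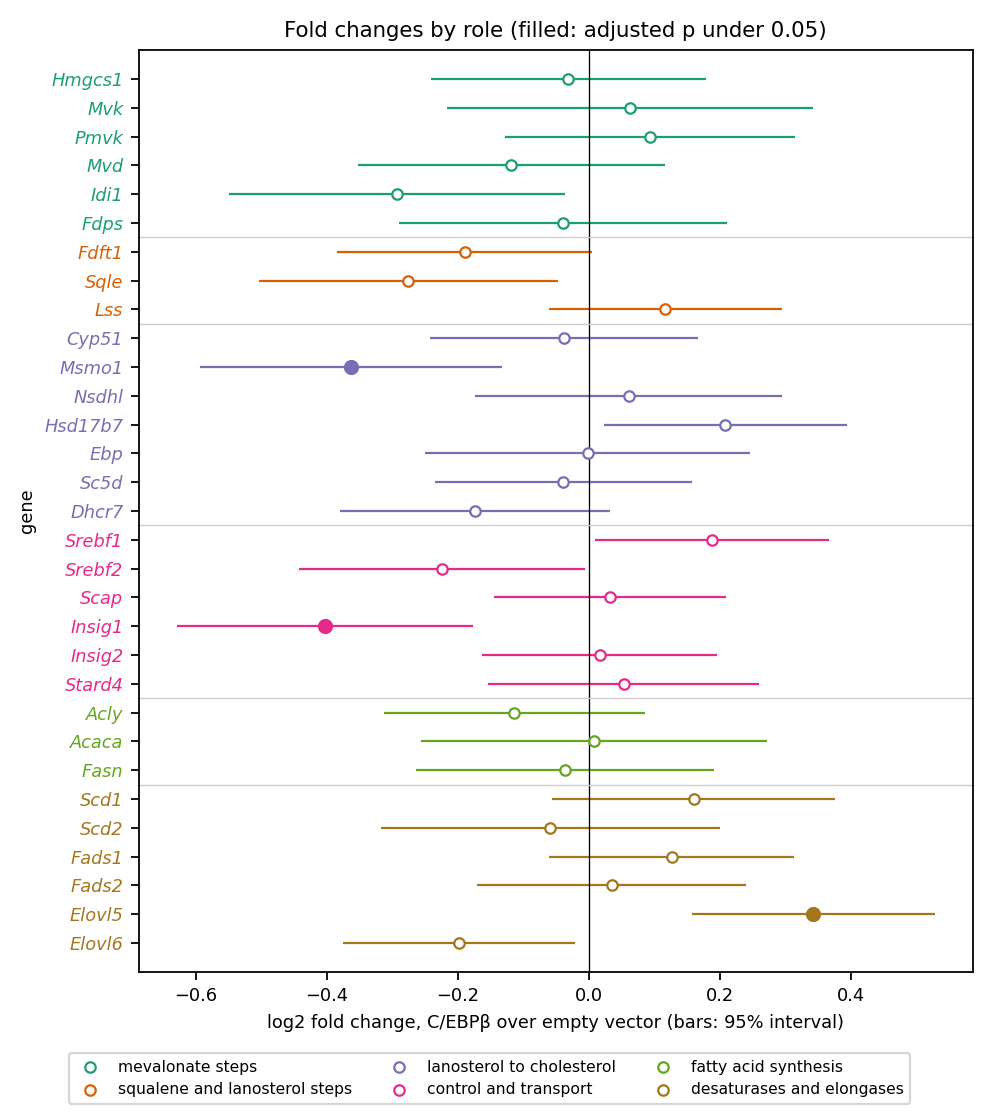
Log2 fold change of each gene, C/EBPβ over empty vector, with its 95% interval, ordered and coloured by role. Filled points passed an adjusted p of 0.05 (Insig1, Msmo1, Elovl5), and 9 intervals exclude 0.

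Among the 6 genes of control and transport only Insig1 was called. The SREBP genes had values of opposite sign. Srebf1 was close within groups, at 154 and 155 CPM with the empty vector and 175 and 177 CPM with C/EBPβ (log2 fold change 0.19, interval 0.01 to 0.37, adjusted p = 0.120). Srebf2 went from 404 and 444 to 349 and 377 CPM (-0.22, interval -0.44 to -0.01, adjusted p = 0.126). In both genes the groups did not overlap, and neither passed the threshold by edgeR. Insig2, the second Insig gene, was level at 75.1 and 75 against 77.5 and 74.4 CPM (0.02, interval -0.16 to 0.20). Scap, the SREBP escort, had 75.9 and 74.2 against 77.2 and 76.3 CPM (0.03, interval -0.15 to 0.21). Stard4, a carrier of cholesterol between membranes, had 82.0 and 92.9 against 88.0 and 93.4 CPM (0.05, interval -0.15 to 0.26).

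The 3 genes that make palmitate from citrate showed no call by edgeR, DESeq2 or limma-voom, and 0 had an unadjusted p under 0.05. Acly, ATP citrate lyase, had 317 and 338 CPM with the empty vector and 296 and 309 CPM with C/EBPβ (log2 fold change -0.11, interval -0.31 to 0.09). Acaca, acetyl-CoA carboxylase, ranged more within the empty vector group, 46.2 to 58.4 CPM, than between groups (0.01, interval -0.26 to 0.27). Of its 50-base windows 52.6% stand in another annotated gene, so its level is uncertain. Fasn, fatty acid synthase, had 414 and 476 against 435 and 432 CPM (-0.04, interval -0.26 to 0.19).

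Desaturases place double bonds in fatty acids and elongases add carbon pairs. Scd2 and Scd1, the stearoyl-CoA desaturases, were the most abundant of the 31 genes. Scd1 had 816 and 820 CPM with the empty vector and 897 and 930 CPM with C/EBPβ, with no overlap (log2 fold change 0.16, interval -0.06 to 0.38, adjusted p = 0.261). Scd2 overlapped, at 2087 and 2165 against 1928 and 2153 CPM (-0.06, interval -0.32 to 0.20). Fads1 and Fads2, the desaturases of polyunsaturated fatty acids, had 0.13 and 0.03. Elovl6, which lengthens palmitate, went from 115 and 114 to 98.0 and 101 CPM, with both C/EBPβ libraries lower (-0.20, interval -0.38 to -0.02, adjusted p = 0.100). Elovl5 and Elovl6 thus differed in sign, with Elovl5 called and Elovl6 not.

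Levels can be compared between genes only per length, here in TPM (counts per exon length of the gene, scaled so that every library has the same sum). With the empty vector the order ran from Scd2 at 1271 ± 88.7 TPM (SD, n = 2) and Scd1 at 551 ± 26.4 through Hmgcs1 at 347 ± 27.7 down to Fdps at 17.9 ± 1, Idi1 at 14.1 ± 0.404 and Acaca at 10.0 ± 2.09. With C/EBPβ Scd2 had 1230 ± 101, Scd1 621 ± 18.7 and Hmgcs1 342 ± 25 TPM. Srebf2 (277 ± 30.9) and Fads2 (285 ± 37.6) did not differ beyond their spread with the empty vector. TPM uses the deposited exon lengths, which join all annotated exons: 10787 bases for Lss, whose longest coding transcript has 4667. These lengths come from an older annotation release (GENCODE M12) than the transcripts (GENCODE M21). For Fads2 the deposited length is 1508, while its longest coding transcript in the later release, which gives the gene a wider span, has 3150. Levels of such genes are therefore shifted, while fold changes of a gene are not. Fdps and Acaca, low in the order, are also divided by long joined exons, 4208 bases against 1382 and 17074 against 9513. Fdps, Idi1 and Acaca share windows with other genes as well (86.4%, 30.5% and 52.6%), so their place in the order is uncertain.

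**Figure D4:**
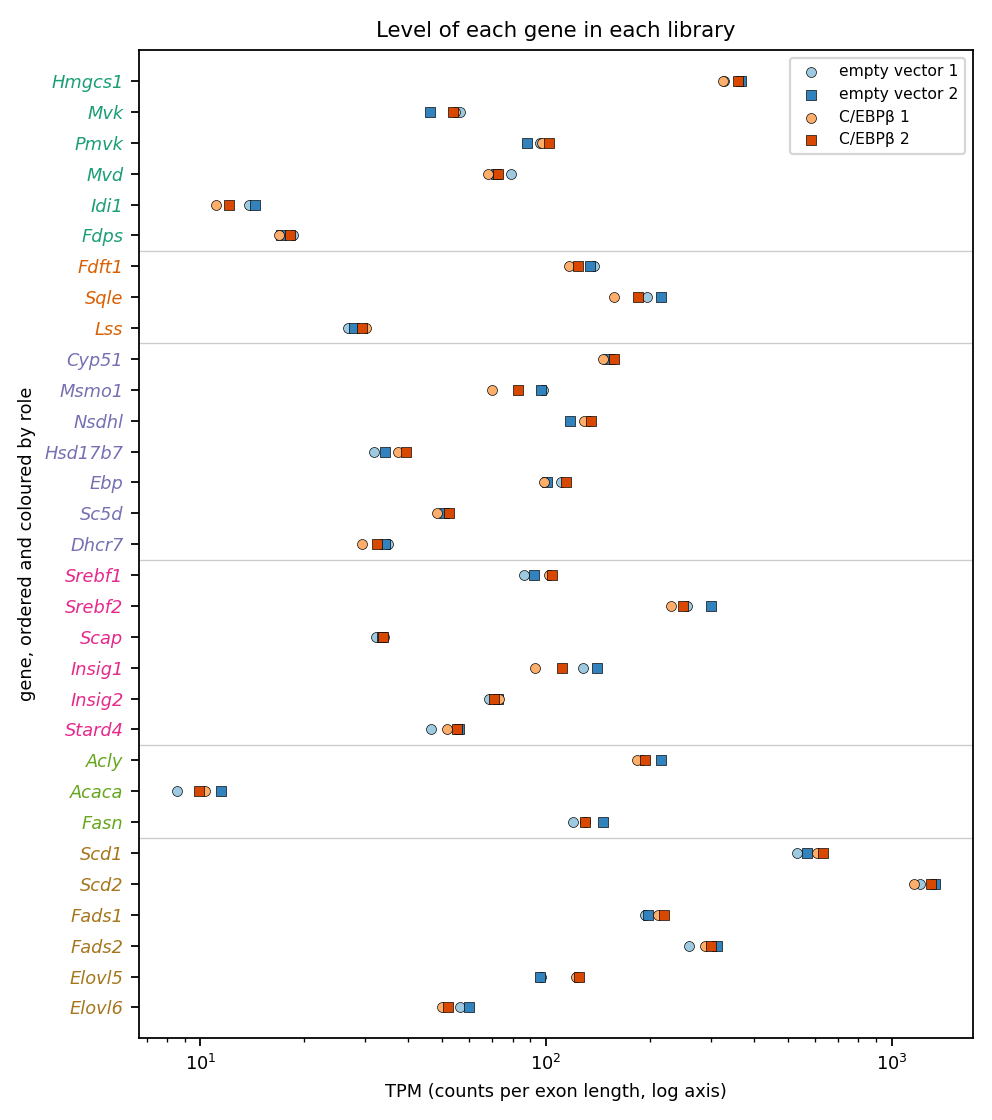
TPM of each gene in each of the 4 libraries on a log axis, ordered and coloured by role. Scd2 and Scd1 lie highest and Acaca and Idi1 lowest, and the 4 libraries of a gene lie close together beside the differences between genes. The levels of Acaca and Idi1 are uncertain, since they share windows with other genes and reads that map to several places were not counted.

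The summed level of the 31 genes was 4849 and 5201 TPM with the empty vector and 4777 and 5157 TPM with C/EBPβ, a ratio of means of 0.988 with overlapping groups. Scd1 and Scd2 made up 35.9% and 36.6% of that sum with the empty vector and 37.0% and 37.5% with C/EBPβ. The squalene and lanosterol steps summed to 360 and 377 TPM and to 304 and 338 TPM, without overlap. Sqle alone held a mean of 205 of 368 TPM with the empty vector, and Lss differed in the other direction. The mevalonate steps summed to 592 and 605 against 573 and 618 TPM, and the desaturases and elongases to 2346 and 2568 against 2436 and 2631 TPM, with overlap in both. The remaining role sums overlapped too. They were 617 and 585 against 558 and 613 TPM from lanosterol to cholesterol, and 617 and 694 against 582 and 623 TPM for control and transport. Fatty acid synthesis had 318 and 373 against 324 and 333 TPM.

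Ratios of related genes within a library do not depend on how libraries are scaled. Per length, Insig1 over Insig2 was 1.87 and 1.93 with the empty vector and 1.27 and 1.57 with C/EBPβ. Srebf1 over Srebf2 was 0.339 and 0.309 against 0.444 and 0.417. Elovl5 over Elovl6 was 1.72 and 1.61 against 2.44 and 2.40, and Scd2 over Scd1 was 2.27 and 2.34 against 1.91 and 2.05. In these 4 pairs the groups did not overlap, while Fads1 over Fads2 overlapped at 0.746 and 0.632 against 0.732 and 0.730. Levels of single genes did not overlap in 33.3% (higher) and 32.9% (lower) of all tested genes, so a lack of overlap is common here, and the ratios were not tested.

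Other genes of the same pathways were taken from lists of 58 genes, of which 55 could be tested, with 8 higher, 5 lower and 42 not called, a share near the 24.9% called over all tested genes. Among 18 tested genes of SREBP processing, sterol sensing, uptake and trafficking, 1 rose and 1 fell, where 14.1% of all tested genes were called higher and 10.8% lower. The counts were 2 and 2 with DESeq2 and with the replicate block, 2 and 1 with limma-voom, 1 and 3 with library totals, and 0 and 1 without C/EBPβ replicate 1. Nceh1, which hydrolyses cholesteryl esters, fell from 59.2 and 59.8 to 31.8 and 38.8 CPM (-0.75, adjusted p = 0.00146). Gramd1a, a sterol carrier at membrane contacts, rose by 0.39 (adjusted p = 0.0134; adjusted p = 0.119 without C/EBPβ replicate 1).

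LXR receptors sense oxysterols and switch on genes of sterol efflux. Of 7 genes of this list 4 rose (3 in limma-voom and DESeq2) and none fell by any of these tools, with 0 lower at an unadjusted p under 0.05, where 14.1% of all tested genes were called higher and 10.8% lower. Without C/EBPβ replicate 1, and at a minimum of 5 CPM in 2 libraries, 2 were called higher. The 5 CPM filter removed Abca1 and Apoe before testing, as neither reached 5 CPM in any library. The list had a median log2 fold change of 0.41. Abca1, the main exporter of cholesterol to apolipoproteins, rose from 0.802 and 1.03 to 4.74 and 3.96 CPM (2.24, SE 0.23, adjusted p = 2.77e-04). Abcg1, a second exporter, rose from 2.02 and 2.80 to 5.58 and 5.32 CPM (1.18, adjusted p = 0.00320). Lpcat3, which places polyunsaturated chains in phospholipids, rose by 0.33 (adjusted p = 0.0189), with the call lost without C/EBPβ replicate 1 or 2 (adjusted p = 0.0861 and 0.132). The fourth riser was Apoe, named after its values were seen, from 1.70 and 1.98 to 3.38 and 2.67 CPM (0.70, adjusted p = 0.0456). Apoe lost its call without either empty vector library (adjusted p = 0.174 and 0.0825), without C/EBPβ replicate 1 (0.244), in limma-voom (0.0621) and in DESeq2 (0.0965). Srebf1, a known LXR target, is given above at 0.19.

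Of 22 tested genes of the list of other fatty acid synthesis and activation genes, 3 rose and 3 fell, near the shares of 14.1% higher and 10.8% lower over all tested genes. Without C/EBPβ replicate 1 the counts were 3 and 0, and without empty vector replicate 1 they were 3 and 1. Acsl1, a long-chain acyl-CoA synthetase, rose from 21.8 and 23.9 to 48.3 and 43.5 CPM (a log2 fold change of 1, adjusted p = 2.78e-04). Acss2, the cytosolic acetyl-CoA synthetase, rose from 16.7 and 15.3 to 28.0 and 25.1 CPM (0.73, adjusted p = 0.00193). Tecr, the reductase of the elongation cycle, rose by 0.48 (adjusted p = 0.0166). Acsl5, a further acyl-CoA synthetase, fell from 180 and 171 to 123 and 138 CPM (-0.43, adjusted p = 0.00927; 0.0931 without C/EBPβ replicate 1). Mid1ip1, an activator of acetyl-CoA carboxylase, and Hsd17b12, the ketoreductase of the elongation cycle, fell by 0.33 each (adjusted p = 0.0298 and 0.0300), and both calls were lost without empty vector replicate 1 (0.0866 and 0.0797) and without C/EBPβ replicate 1 (0.306 and 0.309).

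**Figure D5:**
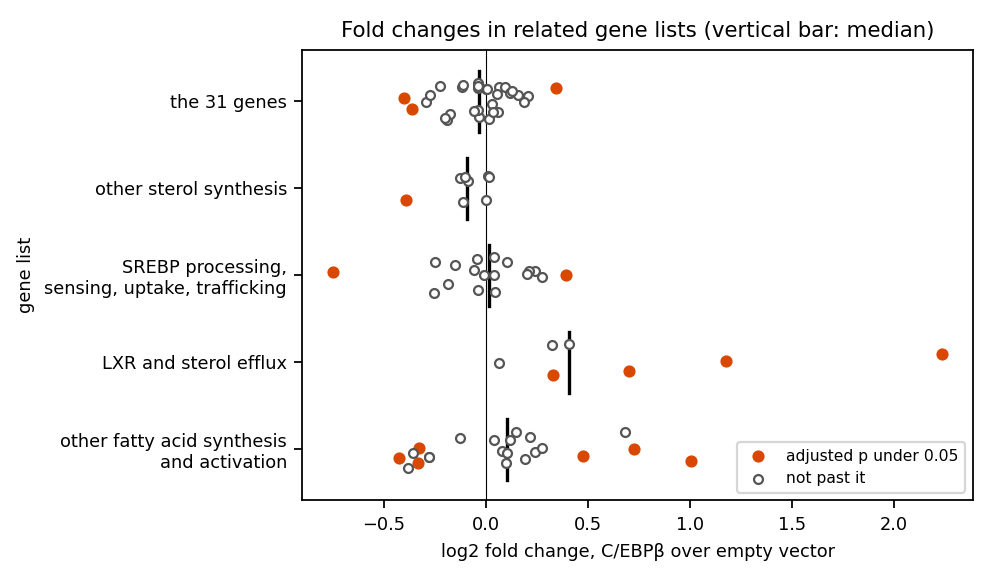
Log2 fold change of each tested gene in the 31 genes and in the lists of related genes, with the median of each as a vertical bar. Filled points passed an adjusted p of 0.05; the 31 genes hold 3 of them, and the list of LXR and sterol efflux genes reaches 2.24 (Abca1).

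The authors' deposited table of their own comparison holds all 31 genes. At an adjusted p of 0.05 it calls 1 of them higher and 4 lower, where 26.0% of its 16596 genes with an adjusted p are called. The authors' deposited table gives log2 fold changes of 0.30 for Elovl5 (adjusted p = 0.00762), -0.45 for Insig1 (1.70e-05), -0.42 for Msmo1 (0.0159), -0.32 for Sqle (0.00400) and -0.27 for Srebf2 (0.0322). Every one of the 31 values in the authors' deposited table was lower than the edgeR value here, by a median of 0.05 and at most 0.05 on the log2 scale. The sign was the same for 27 genes and differed for Scap, Insig2, Acaca and Fads2, all within 0.04 of 0.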

How the data were processed

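RNA was measured in 4 libraries (2 groups of 2, from the sample titles). Deposited gene counts came, per the file headers, from featureCounts 1.5.1 (reverse-stranded, paired) on GENCODE M12; the submitters' processing notes name featureCounts 1.4.6, HISAT2 2.0.4 on GRCm38 and DESeq2. Multi-mapping reads were left out, which lowers the counts of genes with close copies. The authors' deposited comparison table gives log2 fold changes with SE, p-values, a base mean (signal) and a statistic (score); the libraries behind it are not stated. It was described and not retested. The gene length in the files is the deposited exon length.

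Here, genes were filtered with filterByExpr of edgeR 4.0.16 (minimum count 10, total 15), leaving 15078 of 49585, scaled with TMM and tested across all genes with the quasi-likelihood test, with Benjamini-Hochberg adjustment and calls at 0.05. SE and 95% intervals were derived from the F statistic and are not adjusted for the number of genes. At these totals 1 count is 0.0109 to 0.0266 CPM. The test was checked on simulated data. Alternatives were RLE size factors, library totals, DESeq2 1.42.0, limma-voom (limma 3.58.1), other filters, each library left out and the replicate number as a block. Libraries of a group differed beyond sampling noise (chi-square of 20.7 and 22.7 per degree of freedom), so none was merged. Symbols came from GENCODE M21 of the same build (49326 identifiers matched), promoters from RefSeq (GRCm38.p6). Shared windows of 50 bases were counted on either strand in M21 transcripts.

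The genes, the related lists and the motifs were chosen with earlier results of these data known. All 31 genes are named whatever their result; from each related list at most 3 called genes per direction are named, by adjusted p. A result is not reported here.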

Additional observations from a re-analysis of the deposited data

How the results depend on the processing

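Across 11 alternatives, 17 of the 31 genes kept the sign of their fold change in every one, Insig1, Msmo1, Sqle and Elovl5 among them. The 5 CPM filter left 10583 genes to test, against 15078 in the main fit and with the replicate block, so counts of calls have different bases. Across all genes 3759 were called, between 2724 (at least 5 CPM in 2 libraries) and 4536 (replicate block), and 2493 (without C/EBPβ replicate 1) to 3462 with a library left out. Genes called higher among the 31 ranged from 0 to 1 and genes called lower from 0 to 3 with a library left out; a group of 1 library is then assumed to vary like the other group. The count of genes called lower was 3 rather than 2 with DESeq2 and with the replicate block, both adding Sqle. The replicate block rests on numbers only: deviations of same-numbered libraries from their group means correlated at 0.18 over 15078 genes and at -0.11 over the 31, and no label says what a number marks.

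The 14 genes whose sign turned had main values within 0.09 of 0. With library totals only, Insig2 was -0.0033 and Acaca -0.012. Ebp was 0.0075 with no low-count filter and 0.013 with the 5 CPM filter. With a library left out the ranges were -0.10 to 0.036 for Hmgcs1, -0.11 to 0.26 for Mvk, -0.013 to 0.20 for Pmvk, -0.14 to 0.064 for Fdps and -0.11 to 0.030 for Cyp51. They were -0.073 to 0.20 for Nsdhl, -0.11 to 0.12 for Ebp, -0.10 to 0.017 for Sc5d, -0.014 to 0.045 for Insig2 and -0.037 to 0.14 for Stard4. They were -0.16 to 0.18 for Acaca, -0.14 to 0.065 for Fasn, -0.14 to 0.017 for Scd2 and -0.056 to 0.12 for Fads2. The cause was not tested. In C/EBPβ cells 6 of the 31 genes were higher in replicate 1 than in replicate 2, and 18 in empty vector cells. The same alternatives were applied to Cebpb and to the related genes called, chosen after their values were seen, and no sign turned.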
